A study of Mus musculus with 18 samples.

Results

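Transcripts of 10 genes of the Bcl2 family were followed by RNA-seq through 6 CD4+ T-cell populations of reporter mice. The genes were chosen by symbol and by their role in mitochondrial apoptosis. They are the antiapoptotic genes Bcl2, Bcl2l1 and Mcl1, the effectors Bax and Bak1, and the BH3-only genes Bcl2l11, Bbc3, Pmaip1, Bid and Bad. All 10 have a row among the 15402 genes of the deposited table, and all 10 passed the filter on low values.

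Proteins of this family decide at the mitochondrial outer membrane whether a cell enters apoptosis. Bax and Bak1 form the pores through which cytochrome c leaves, the antiapoptotic members hold them and the BH3-only proteins in check, and the BH3-only proteins carry death signals to both. In T cells the family is known for the loss of activated cells after a response, in which Bcl2l11 (Bim) takes part, for interleukin-7 acting through Bcl2 in resting cells, and for the need of regulatory T cells for Mcl1.

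All cells came from female C57/BL6 mice that carried Foxp3Timer together with Foxp3-IRES-GFP. Foxp3Timer drives, with Foxp3 transcription, a fluorescent protein that is made as a short-lived blue form and matures to a stable red form. Every mouse had received 3% oxazolone, a contact sensitiser, on the abdominal skin 5 days before the inguinal and axillary lymph nodes were taken. No untreated mice were analysed here, and the nodes were pooled within each of the 3 replicates. Cells without Timer and GFP were sorted as Tnaive (CD44lo) and Teff (CD44hi). GFP+ cells were sorted by Timer fluorescence into 4 populations. Pers1 cells were intermediate for blue and low for red and Pers2 cells high for both, and these are named for persistent Foxp3 transcription. PAt cells, between persistent and arrested, kept high red with little blue, and Arrested cells had no blue and an intermediate red signal. The sample labels call these 4 populations, in that order, de novo, maturing, mature and decaying Foxp3 expressers, so the maturity named for Pers1 in particular differs between the sources. Timer reports the transgenic Foxp3 promoter and not the protein.

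Values are log2 normalised counts, and each value below is on that scale unless stated. Raw counts were not analysed here; without them the sequencing depth is unknown and no counting interval can be given. Library medians lay between 8.96 and 9.16. Foxp3 separated the Timer+ from the Timer-negative libraries, at 14.36 to 14.85 in the 12 Timer+ libraries, 11.27 to 11.38 in Tnaive and 10.38 to 10.64 in Teff. It did not separate all Timer+ populations from each other. PAt, at 14.36 to 14.65, overlapped with Pers1 (14.56 to 14.68) and Arrested (14.40 to 14.45). Of the 4 CD4 T cell markers on the list that have a row (Trbc2 is the other listed gene), the summed linear level was 58900 to 103600 in every library. Teff libraries also carried markers of other cells. The summed level of 5 macrophage and monocyte markers was 1900 to 2330 in Teff and 521.8 to 1009 elsewhere, that of 3 plasmacytoid dendritic cell markers was 3541 to 5029 in Teff and 1357 to 2210 elsewhere, and Siglech, which defines the latter cells, averaged 10.62 in Teff against 3.58 to 4.30 elsewhere. Among the macrophage and monocyte markers Itgam was not highest in Teff. It averaged 8.33 there, 8.44 in Tnaive, 8.88 in Pers1 and 6.23 to 8.16 in the others. B cell markers reached 2855 to 4553 in Teff, 2391 to 3634 in PAt and Arrested, and 712.4 to 1715 in the other populations. The summed level of 2 CD8 T cell markers was 2919 to 4087 in Teff and 803.3 to 1666 elsewhere, and that of 2 NK cell markers was 265.6 to 283.4 against 33.03 to 99.89. Their part in the results was not tested. In sorted bulk RNA, fewer cells of a type and less RNA per cell cannot be told apart.

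**Figure D1:**
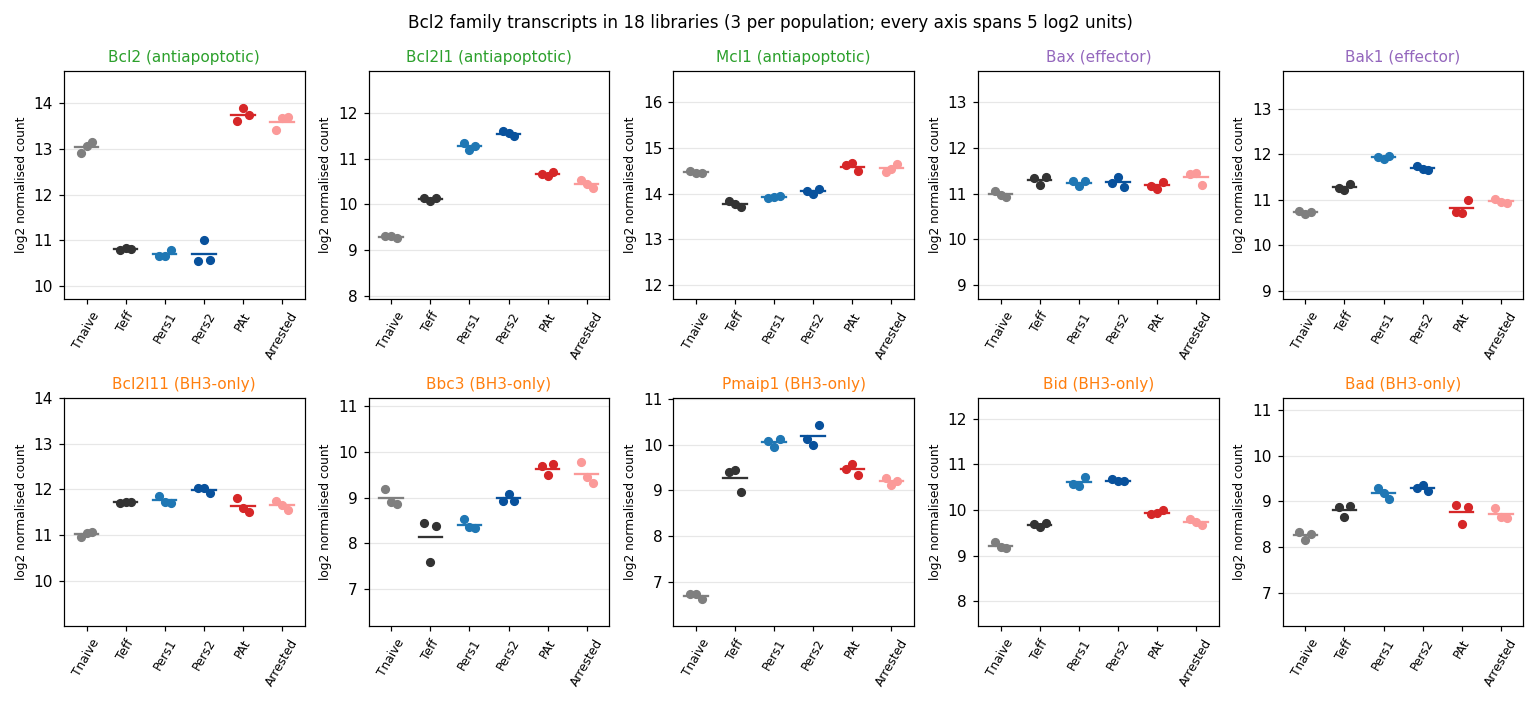
Log2 normalised counts (vertical axes, each spanning 5 log2 units) of the 10 genes in the 6 populations (horizontal axes); points are the 3 libraries of a population and short lines their means. Bcl2 stood at 10.54 to 11.01 in all Teff, Pers1 and Pers2 libraries and at 12.91 to 13.89 in all others, while Bax stayed between 10.94 and 11.45.

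The antiapoptotic genes were measured first. Bcl2, the founding survival factor of the family, lies on chromosome 1 (GRCm38, 106538178 to 106714274, minus strand). It measured 12.91, 13.07 and 13.14 in Tnaive, 13.62, 13.89 and 13.76 in PAt, and 13.42, 13.68 and 13.69 in Arrested. The Teff libraries gave 10.79, 10.83 and 10.82, those of Pers1 10.65, 10.66 and 10.78, and those of Pers2 10.54, 11.01 and 10.58. The libraries thus formed a high set of 3 populations and a low set of 3 populations with no overlap, and Pers2 replicate 2 was the highest of the low set. Within the low set no neighbours differed beyond their spread (adjusted p = 0.406 for Teff against Pers2 and 0.97 for Pers2 against Pers1). Within the high set PAt and Arrested did not differ at this threshold (0.16 ± 0.10 log2, SE; adjusted p = 0.433), and Arrested lay above Tnaive by 0.56 ± 0.10 (adjusted p = 0.000114).

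Bcl2l1 encodes Bcl-xL, a survival factor that acts alongside Bcl2. It lies on chromosome 2 (152780668 to 152831728, minus strand). Its level was 9.31, 9.30 and 9.25 in Tnaive, and 10.13, 10.08 and 10.14 in Teff. Arrested gave 10.53, 10.45 and 10.35, and PAt 10.67, 10.61 and 10.71. The highest values were in the persistent populations, with 11.35, 11.19 and 11.29 in Pers1 and 11.60, 11.56 and 11.50 in Pers2. Each of the 5 neighbouring populations in this order differed past the adjusted p of 0.05, which held for no other of the 10 genes. The smallest step, between PAt and Arrested (0.22 ± 0.06 log2, adjusted p = 0.0364), gave adjusted p-values of 0.0734 when libraries were shifted to the same median and 0.213 when only those 2 populations were fitted. It also missed the threshold without any single PAt library (adjusted p = 0.0568 to 0.113) and without Arrested replicate 2 or 3 (0.0935 and 0.104).

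The 250 bases upstream of the RefSeq start of Bcl2 (chr1:106714291-106714540, minus strand) and of the outermost of 3 RefSeq starts of Bcl2l1 (chr2:152831729-152831978, minus strand) are shown because these antiapoptotic genes gave the most unlike patterns. Both come from RefSeq on GRCm38.p6 and read 5′ to 3′ along the gene. Capitals mark matches on either strand to any of the motifs searched.
Bcl2: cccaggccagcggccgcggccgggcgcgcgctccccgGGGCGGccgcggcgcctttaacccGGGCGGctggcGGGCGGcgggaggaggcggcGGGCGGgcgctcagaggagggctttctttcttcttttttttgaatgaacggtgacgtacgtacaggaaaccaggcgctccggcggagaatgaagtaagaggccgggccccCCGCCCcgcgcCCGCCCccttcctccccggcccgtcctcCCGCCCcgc
Bcl2l1: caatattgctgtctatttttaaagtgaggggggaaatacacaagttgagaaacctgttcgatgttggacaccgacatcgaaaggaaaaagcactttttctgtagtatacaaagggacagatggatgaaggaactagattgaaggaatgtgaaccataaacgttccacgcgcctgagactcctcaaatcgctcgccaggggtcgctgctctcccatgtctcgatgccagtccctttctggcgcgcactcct
The Bcl2 window was 74.8% G or C and held 7 matches to GGGCGG, the GC box, which 32.7% of 32851 RefSeq windows of this length hold. The Bcl2l1 window was 47.6% G or C and held none. Neither window held TTCNNNGAA (Stat, 7.02% of windows), GTAAACA (Foxo, 3.17%), GGG and TTTCC parted by any 2 bases (NF-kB, 1.41%), TGANTCA (AP-1, 6.75%) or CACGTG (E-box, 6.02%). Of the other 2 Bcl2l1 windows, not shown, 1 held an NF-kB match. These matches describe letters in a window and say nothing of which factors bind there.

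Mcl1, a short-lived survival protein, lies on chromosome 3 (95658788 to 95663176, plus strand). It split the libraries into the same 2 sets of populations as Bcl2 over a narrower range. It measured 14.46 to 14.50 in Tnaive, 14.49 to 14.67 in PAt and 14.47 to 14.64 in Arrested, against 13.72 to 13.84 in Teff, 13.91 to 13.96 in Pers1 and 14.003 to 14.110 in Pers2. Tnaive, PAt and Arrested did not differ from their neighbours in the order, whereas Tnaive stood above Pers2 by 0.41 ± 0.05 (adjusted p = 4.97e-07). Over the 18 libraries the Pearson correlation of Bcl2 with Mcl1 was 0.94, a description of libraries that share populations and pools.

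Among the effectors, Bax and Bak1 had unlike patterns. Bax (chromosome 7, 45461697 to 45466898, minus strand) ranged from 10.94 to 11.06 in Tnaive and from 11.11 to 11.45 in all other libraries. Only its lowest step, PAt above Tnaive, passed (0.19 ± 0.07, adjusted p = 0.0398). Bak1 (chromosome 17, 27019810 to 27029009, minus strand) was 11.90 to 11.96 in Pers1, 11.65 to 11.74 in Pers2, 11.22 to 11.34 in Teff, 10.94 to 11.01 in Arrested, 10.72 to 10.99 in PAt and 10.69 to 10.75 in Tnaive. Its first 3 steps passed, and those from Arrested to PAt and from PAt to Tnaive did not. Tnaive less Arrested, which are not neighbours, was -0.24 ± 0.06 (adjusted p = 0.00346). The whole of Bak1 lies opposite to Ggnbp1, which measured 5.69 to 7.08. The library kit marks strand, but whether the counting used it is not given in the sources used here. Bax shares 915 bases on its own strand with Gm45808, for which no value was analysed here.

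Of the BH3-only genes, Bcl2l11, Pmaip1, Bid and Bad had their lowest mean in Tnaive and their highest in Pers2. Bbc3 departed from this, with its lowest mean in Teff and its highest in PAt. Pers2 did not differ from Pers1 beyond the spread for Pmaip1, Bid and Bad (limma adjusted p = 0.558, 0.828 and 0.57). For Bcl2l11 that step passed (adjusted p = 0.0348), with limits given below. Bcl2l11, which encodes Bim, the death activator best known in T cells (chromosome 2, 128126038 to 128162547, plus strand), was 10.96 to 11.08 in Tnaive and 11.50 to 12.04 in all other libraries. Pmaip1, which encodes Noxa, a partner of Mcl1 (chromosome 18, 66458533 to 66465565, plus strand), measured 6.73, 6.72 and 6.61 in Tnaive. It gave 9.40, 9.45 and 8.96 in Teff, 10.07, 9.95 and 10.12 in Pers1, and 10.12, 9.998 and 10.42 in Pers2. PAt gave 9.47, 9.58 and 9.32, and Arrested 9.27, 9.11 and 9.20. Tnaive stood apart from every other library, and between the means of Tnaive and Pers2 Pmaip1 had the widest range of the 10 genes, 11.2-fold. The step from Arrested to Tnaive was 2.504 ± 0.120 (adjusted p = 2.65e-13), and Teff did not differ from PAt or Arrested beyond the spread (adjusted p = 0.205 and 0.634).

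Bbc3, which encodes Puma, a p53 target that can bind all antiapoptotic members (chromosome 7, 16308393 to 16318205, plus strand), was the most variable within populations. It gave 9.18, 8.90 and 8.87 in Tnaive, 8.46, 7.59 and 8.39 in Teff, 8.54, 8.37 and 8.33 in Pers1, and 8.94, 9.09 and 8.93 in Pers2. PAt gave 9.69, 9.49 and 9.73, and Arrested 9.78, 9.46 and 9.33. Teff replicate 2 lay far below the other Teff libraries (SD of Teff 0.48), and the PAt and Arrested libraries lay above all others. Bid, which links death receptors to mitochondria (chromosome 6, 120891930 to 120916853, minus strand), was 9.18 to 9.31 in Tnaive, 9.63 to 10.002 in Teff, PAt and Arrested together, and 10.53 to 10.73 in Pers1 and Pers2. Bad, whose protein is held inactive by survival-factor signalling (chromosome 19, 6941861 to 6951899, plus strand), was 8.16 to 8.33 in Tnaive, 8.50 to 8.91 in Teff, PAt and Arrested, and 9.05 to 9.37 in Pers1 and Pers2. Bid and Bad each overlap a gene on the opposite strand at one end, Bcl2l13 (10.90 to 11.26) over 913 bases and Gpr137 (8.50 to 9.22) over 620 bases.

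Over the 10 genes, 23 of 50 neighbouring steps passed the adjusted p. The share of such steps over all genes was not taken, so this count describes these genes only. Tnaive had the lowest mean for 7 genes, namely Bcl2l1, Bax, Bak1, Bcl2l11, Pmaip1, Bid and Bad. For Bak1 it did not differ from PAt at this threshold (0.09 ± 0.06, limma adjusted p = 0.253). How often Tnaive had the lowest mean over all genes was not counted.

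Levels of different genes were compared per kilobase of annotated exon, as log2 normalised counts per kilobase. On this scale Mcl1 ranked first of the 10 genes in every population, from 12.003 in Teff to 12.821 in PAt. Bcl2 ranked 2 of 10 in PAt (10.6 ± 0.13, SD, n = 3) and 3 of 10 in both Arrested (10.4 ± 0.16) and Tnaive (9.84 ± 0.12). In Teff it ranked 8 of 10 (7.62 ± 0.020), in Pers1 9 of 10 (7.50 ± 0.071) and in Pers2 10 of 10 (7.52 ± 0.26). Bcl2l1 ranked 8 of 10 in Tnaive (7.09 ± 0.032) and 4 of 10 in Pers1 (9.08 ± 0.080) and Pers2 (9.35 ± 0.050). With the longest transcript as the length, Bcl2 ranked 3 of 10 in PAt and kept its other ranks. The order of the pair thus differed between populations, with Bcl2 above Bcl2l1 per kilobase in Tnaive, PAt and Arrested and below it in Teff, Pers1 and Pers2. Within each library the log2 count of Bcl2 minus that of Bcl2l1, not adjusted for length, was 3.09 ± 0.17 in PAt, 3.15 ± 0.24 in Arrested, 3.75 ± 0.15 in Tnaive, 0.70 ± 0.045 in Teff, -0.57 ± 0.10 in Pers1 and -0.84 ± 0.27 in Pers2 (SD, n = 3). Set against Bcl2l11, Bcl2 gave 2.13 ± 0.26 in PAt, 1.95 ± 0.25 in Arrested and 2.01 ± 0.063 in Tnaive, and -0.90 ± 0.011 in Teff, -1.07 ± 0.14 in Pers1 and -1.28 ± 0.24 in Pers2. The same difference for Mcl1 less Bcl2l11 was 2.91 to 3.45 in the first 3 of these populations and 2.06 to 2.17 in the other 3.

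**Figure D2:**
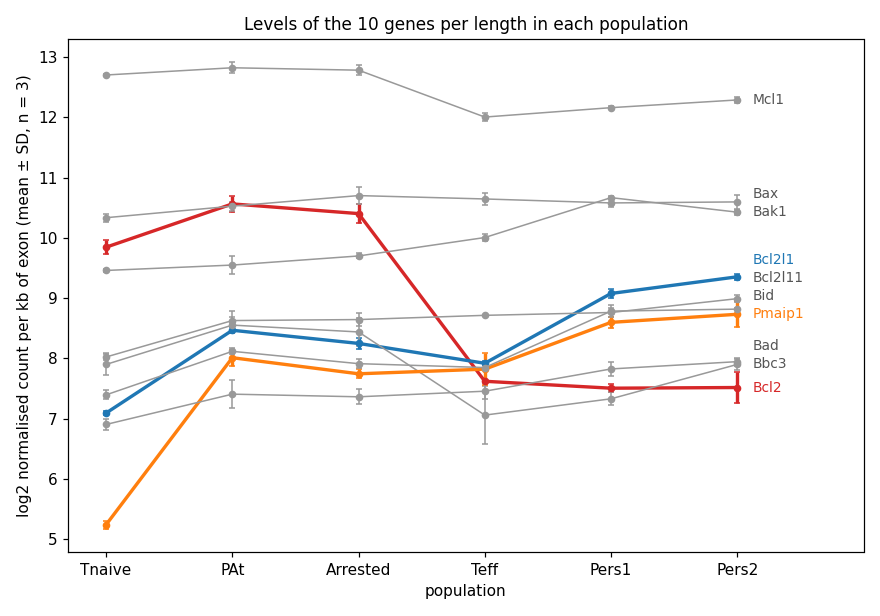
Log2 normalised count per kilobase of exon (vertical axis; mean ± SD of 3 libraries) of the 10 genes in each population (horizontal axis, populations with high Bcl2 on the left); Bcl2 is red, Bcl2l1 blue, Pmaip1 orange and the others grey. Bcl2 falls from 10.4 in Arrested to 7.62 in Teff, and Bcl2l1 lies above it in Teff, Pers1 and Pers2.

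The first comparison asked how cells with persistent Foxp3 transcription (Pers1 and Pers2 with equal weight) differed from PAt and Arrested cells. A gene was called when the limma test gave a Benjamini-Hochberg adjusted p under 0.05 over all 13190 genes tested and the log2 fold change was above 1 in size; 7.51% of genes tested were called, 4.74% higher and 2.77% lower. Of the 10 genes, 1 was called, Bcl2, which fell by 2.97 ± 0.07 on the log2 scale (SE, adjusted p = 3.43e-18), or 7.85-fold lower. The adjusted p alone was passed by 70.9% of all genes (35.9% higher, 35.1% lower) and by 9 of the 10 genes, 6 higher and 3 lower. The antiapoptotic genes did not move together. Bcl2l1 was 1.81-fold higher (0.86 ± 0.04, adjusted p = 1.69e-13) and Mcl1 lower by 0.58 ± 0.04 (log2 fold change -0.58, adjusted p = 1.33e-11). Of the effectors, Bak1 was 1.90-fold higher (0.92 ± 0.04, adjusted p = 9.98e-14) and Bax differed by -0.03 ± 0.05 (adjusted p = 0.678). Among the BH3-only genes, Pmaip1 and Bid were each higher by 0.79, Bad by 0.50 and Bcl2l11 by 0.24, with adjusted p from 5.19e-12 to 0.000156, and Bbc3 gave -0.88 ± 0.12 (adjusted p = 1.06e-06). For Bcl2l11 only Pers2 passed on its own, at 0.36 over PAt and 0.35 over Arrested (adjusted p = 0.000108 and 0.000174). Pers1 gave 0.13 and 0.12 over the same populations (adjusted p = 0.0949 and 0.144). The libraries of the groups did not overlap for 8 of the 10 genes, as for 45.8% of all genes, and overlapped for Bax and Bcl2l11. The median over the 10 genes was 0.37 and that over all genes -0.0135. Mki67, which marks dividing cells, moved with this comparison, being 2.88 ± 0.05 higher in Pers1 and Pers2, and its part in these values was not tested. All 5 B cell markers were lower in Pers1 and Pers2 by the adjusted p (3 of them called, median -1.11), with summed levels of 1415 to 1715 against 2391 to 3634, and both CD8 T cell markers were lower (1 called, median -0.81). Their part was not tested either.

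Persistent cells were next compared with Teff, the Timer-negative CD44hi cells, a comparison in which 8.31% of all genes were called (4.28% higher, 4.03% lower). Of the 10 genes, 1 was called, Bcl2l1, which rose 2.46-fold (1.30 ± 0.05, adjusted p = 9.5e-15). Bcl2 differed by -0.11 ± 0.09 (adjusted p = 0.295), and without Pers2 replicate 2 by -0.19 (adjusted p = 0.0268). At the adjusted p alone 8 genes were higher and 0 lower, against 58.7% of all genes (29.8% higher, 28.9% lower), with 8 of 10 and 62.4% of all genes at an unadjusted p under 0.05. Bid was 1.94-fold higher (0.95 ± 0.06, adjusted p = 1.02e-11), Pmaip1 1.79-fold (0.84 ± 0.10, adjusted p = 5.54e-07) and Bbc3 1.47-fold (0.56 ± 0.14, adjusted p = 0.00244). Without Teff replicate 2, the low library for this gene, the value for Bbc3 was 0.28 (adjusted p = 0.0472). Pers1 alone did not differ from Teff for Bbc3 at this threshold in the limma fit. Teff less Pers1 was -0.27 (adjusted p = 0.182) and Teff less Pers2 was -0.84 (adjusted p = 0.00023). Bak1, Bad, Mcl1 and Bcl2l11 were higher by 0.54, 0.43, 0.22 and 0.16. For Bcl2l11 the adjusted p of 0.0236 rose to 0.0552, 0.056 or 0.0661 when a Teff library was left out, to 0.0579 without Pers1 replicate 1, and to 0.158 when libraries were shifted to the same median. Teff less Pers1 was -0.05 for Bcl2l11 (adjusted p = 0.59) and Teff less Pers2 was -0.28 (adjusted p = 0.00178), so Pers1 alone did not differ from Teff here either. Bax gave -0.06 ± 0.06 (adjusted p = 0.464). The cell markers that stand higher in Teff, given above, move with this comparison.

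PAt and Arrested cells were then compared with both Timer-negative populations. Against Teff, where 6.88% of all genes were called (2.84% higher, 4.04% lower), 2 of the 10 genes rose. Bcl2 was 7.27-fold higher (2.86 ± 0.09, adjusted p = 1.93e-16) and Bbc3 2.71-fold higher (1.44 ± 0.14, adjusted p = 3.4e-08), and all PAt and Arrested libraries lay above all Teff libraries for both. Mcl1, Bcl2l1 and Bid were also higher by the adjusted p alone (0.80, 0.44 and 0.17) and Bak1 was lower (-0.38), a total of 6 of 10 genes against 52.7% of all genes (24.8% higher, 27.9% lower). The value for Bid lost significance without Teff replicate 2 (0.14, adjusted p = 0.088) and when only the compared populations were fitted (adjusted p = 0.0579). Against Tnaive, where 7.9% of all genes were called (6.63% higher, 1.27% lower), Pmaip1 rose 6.22-fold (2.64 ± 0.10, adjusted p = 5.86e-15) and Bcl2l1 2.40-fold (1.26 ± 0.05, adjusted p = 1.06e-14). All 5 B cell markers were also called higher in this comparison (median 1.83, summed levels of 2391 to 3634 against 712.4 to 955.3), and their part was not tested. Without the fold threshold 9 of 10 genes were higher, against 50.7% of all genes (26.9% higher, 23.8% lower). Bcl2 was higher by 0.64 ± 0.09 (adjusted p = 2.76e-06), Bid, Bcl2l11 and Bbc3 by 0.60 to 0.62, Bad by 0.48 and Bax by 0.28. Mcl1 missed the threshold (0.10 ± 0.05, adjusted p = 0.0763) and passed it without PAt replicate 3 or Arrested replicate 1 (adjusted p = 0.0225 and 0.0364). Bak1, at 0.17, did not pass without Tnaive replicate 2 (adjusted p = 0.0652) or with libraries shifted to the same median (0.172).

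Within the Timer-negative cells, Teff were compared with Tnaive. Here 11.2% of all genes were called (8.88% higher, 2.28% lower) and 2 of the 10 genes, in opposite directions. Pmaip1 rose 5.98-fold (2.58 ± 0.12, adjusted p = 8.78e-14). Bcl2 fell by 2.23 ± 0.10 on the log2 scale (adjusted p = 5.22e-14), which was 4.68-fold lower. All 10 genes passed the adjusted p alone, against 59% of all genes (31.3% higher, 27.7% lower), and for all 10 the Teff and Tnaive libraries did not overlap, as for 64.9% of all genes. Mcl1 and Bbc3 were lower (-0.70 ± 0.05 and -0.84 ± 0.17). Bcl2l1, Bcl2l11, Bad, Bak1, Bid and Bax were higher by 0.83, 0.69, 0.55, 0.55, 0.45 and 0.31. This comparison shares its Teff or Tnaive libraries with those above, so their values are not independent of each other. All 5 B cell markers were called higher in Teff than in Tnaive (median 2.41). The other cell markers that stand higher in Teff, given above, also move with this comparison. Mki67 averaged 12.62 in Teff and 8.48 in Tnaive. The part of these markers was not tested.

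**Figure D3:**
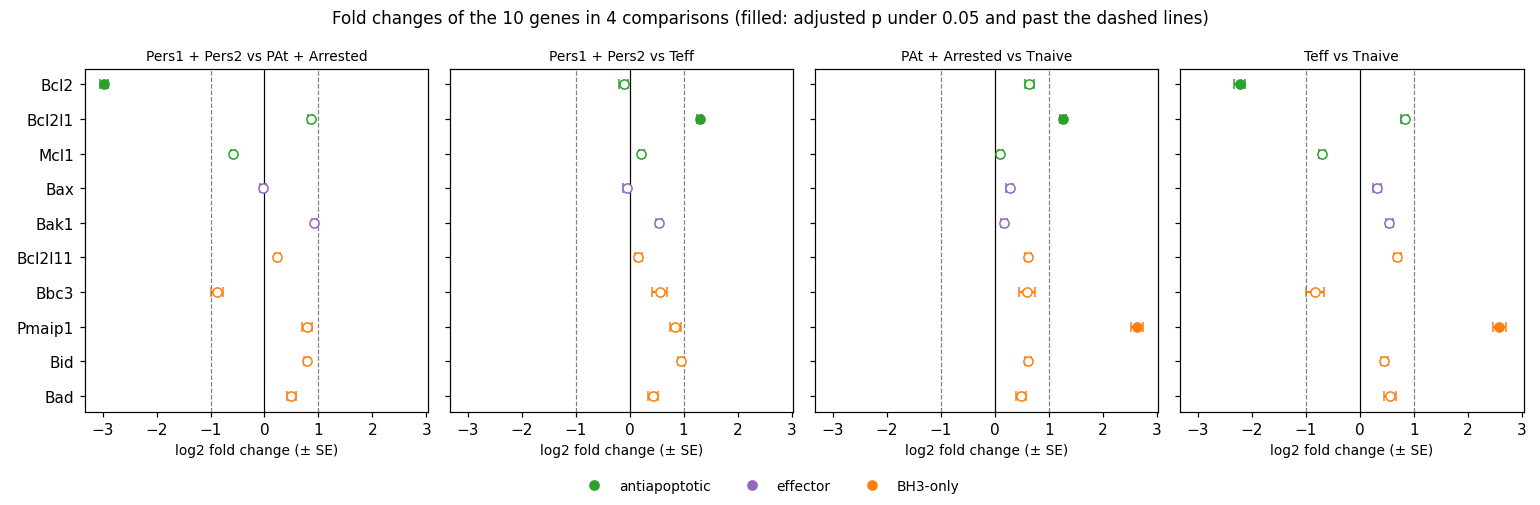
Log2 fold changes (horizontal axes, ± SE from the limma fit) of the 10 genes (rows) in 4 comparisons; filled points passed an adjusted p of 0.05 and a log2 fold change of 1 in size (dashed lines), and colours give the role. Bcl2 lies at -2.97 in the first panel and -2.23 in the last, Bcl2l1 at 1.30 and 1.26 in the middle panels, and Pmaip1 at 2.64 and 2.58 in the last 2 panels.

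Populations within each Timer pair differed little. Between Pers2 and Pers1 0.19% of all genes were called and none of the 10 genes; by the adjusted p alone 4 of 10 passed, against 10.6% of all genes, and at an unadjusted p under 0.05 the limma test passed 5 of 10 and 24% of all genes. Bbc3 was higher in Pers2 by 0.57 ± 0.17 (adjusted p = 0.0325), Bcl2l1 by 0.28 ± 0.06 (adjusted p = 0.00484) and Bcl2l11 by 0.23 ± 0.07 (adjusted p = 0.0348), and Bak1 was lower (-0.24 ± 0.06, adjusted p = 0.0161). Only the value for Bcl2l1 stayed past the threshold whichever Pers1 or Pers2 library was left out. The others missed it in at least 4 of the 6 refits without a Pers1 or Pers2 library, with adjusted p up to 0.151. Between Arrested and PAt 0.121% of all genes were called and again none of the 10, with 5 of 10 at an unadjusted p under 0.05, as for 18.1% of all genes. By the adjusted p alone, which 5.04% of all genes passed, only Bcl2l1 was lower in Arrested (-0.22 ± 0.06, with the limits given above). Bcl2 differed by 0.01 ± 0.10 between Pers2 and Pers1 and by -0.16 ± 0.10 between Arrested and PAt.

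The change from Tnaive to Teff and the change from PAt and Arrested to Pers1 and Pers2 rest on separate libraries of the same pools, so they were compared gene by gene. Of the 10 genes, 9 passed the adjusted p in both with the same sign, as did 38.4% of all genes, and Bax passed in the first only. The difference of the changes was itself tested, and 8.42% of all genes were called. Pmaip1 was the only one of the 10 called, with a rise of 2.58 in Timer-negative cells and 0.79 in Timer+ cells (difference -1.79 ± 0.15, adjusted p = 2.09e-09). By the adjusted p alone, which 48.7% of all genes passed, 6 of 10 genes differed. The drop of Bcl2 was greater in Timer+ cells by 0.75 (difference -0.75 ± 0.12, adjusted p = 3.69e-05), and the changes of Bcl2l11 (-0.45) and Bax (-0.34) lay lower there, while those of Bak1 (0.38) and Bid (0.33) lay higher. For Bcl2l1 (0.03 ± 0.07), Mcl1 (0.12 ± 0.06), Bbc3 (-0.04 ± 0.20) and Bad (-0.05 ± 0.14) no difference was detected, with adjusted p of 0.131 to 0.888. Per kilobase of exon, the Tnaive level of Pmaip1 (5.24 ± 0.064, SD, n = 3) was the lowest of the 10 genes in that population.

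**Figure D4:**
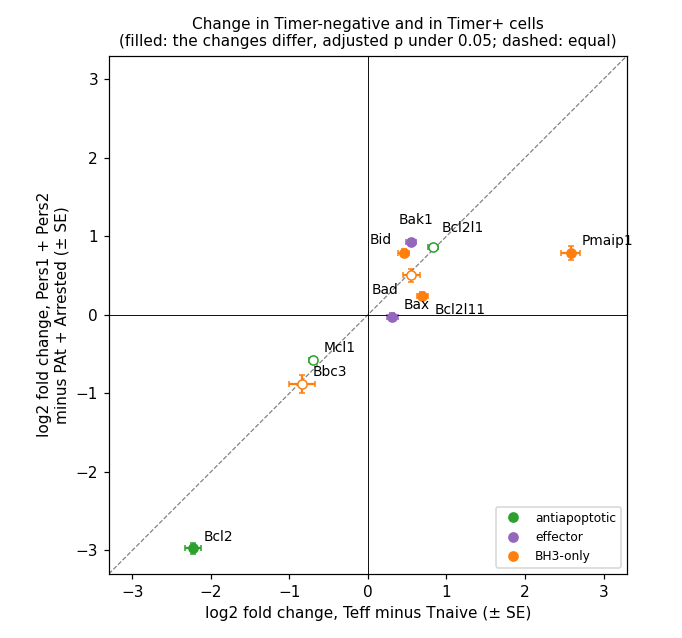
Log2 fold change from Tnaive to Teff (horizontal axis) against that from PAt and Arrested to Pers1 and Pers2 (vertical axis), each ± SE, for the 10 genes; the dashed line marks equal changes and filled points differ from it at an adjusted p under 0.05. Bcl2 lies at -2.23 and -2.97, close to the line but below it, and Pmaip1 at 2.58 and 0.79, far from it.

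The genes most like the 4 members called in any comparison were found by Pearson correlation over the 18 libraries among the tested genes. The libraries fall into populations, so these values describe shared differences between populations. For Bcl2 they were Sorcs2 (0.995), St8sia6 (0.985) and Ttll3 (0.982), and for Bcl2l1 Tnfrsf1b (0.998), Itgae (0.992) and Icam1 (0.991). For Pmaip1 they were Ankrd6 (0.991), Cpd (0.991) and Gnaq (0.989), and for Bbc3, with lower values, Xrcc1 (0.946), Socs1 (0.942) and Tnfrsf25 (0.940). Within the family the closest pair was Bcl2l1 with Bid (0.97), and Bcl2 ran opposite to Bak1 (-0.86).

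Other genes of the pathway were listed by function, 64 in all, of which 61 have a row and were tested. In persistent cells against PAt and Arrested, 5 were called higher and 0 lower (5 of 61, against 7.51% of all genes). The adjusted p alone gave 28 higher and 20 lower, against 35.9% and 35.1% of all genes. Of 11 further Bcl2 relatives, 3 were called, all of them copies of the survival gene Bcl2a1, namely Bcl2a1a (1.11 ± 0.11), Bcl2a1d (1.07 ± 0.07) and Bcl2a1b (1.07 ± 0.06). These copies are nearly identical in sequence, so their reads may have been split between them and single values are uncertain. Of the 4 caspases counted, 2 were higher by the adjusted p alone and 1 was lower, Casp8, the initiator at death receptors (-0.50 ± 0.04). Of 9 genes of the apoptosome and of mitochondrial release none was called. By the adjusted p alone, which 70.9% of all genes passed, 7 were higher and 1, Htra2, was lower (-0.35). Among the higher were Cycs (cytochrome c, 0.67) and Apaf1 (0.59).

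Birc5 (survivin, 2.88 ± 0.08, adjusted p = 1.79e-17) was called among 6 inhibitors of apoptosis. It is also a mitotic protein, and Mki67 was higher by the same 2.88. The part of cell division in the Birc5 value was not tested. Among 11 p53 pathway genes Cdkn1a was called, the cell cycle inhibitor p21 (1.41 ± 0.12). None was called among 9 death receptor genes, 3 Foxo factors, 6 survival cytokine receptors or the 2 Stat5 genes. Foxo1, Foxo3 and Foxo4 passed the adjusted p alone and were lower (-0.24, -0.47 and -0.40), as were Stat5a and Stat5b (-0.30 each) and Il7r, the interleukin-7 receptor (-0.92 ± 0.08, adjusted p = 1.24e-09). Il2rb and Il2rg, chains of the interleukin-2 receptor, were higher by 0.47 and 0.34, and Il2ra differed by -0.12 ± 0.07 (adjusted p = 0.113). From Tnaive to Teff, 7 of the 61 genes were called higher and 2 lower, against 8.88% and 2.28% of all genes. The Bcl2a1 copies rose by 3.05 to 3.76 there, while Il7r fell by 1.41 and Il4ra by 2.43.

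**Figure D5:**
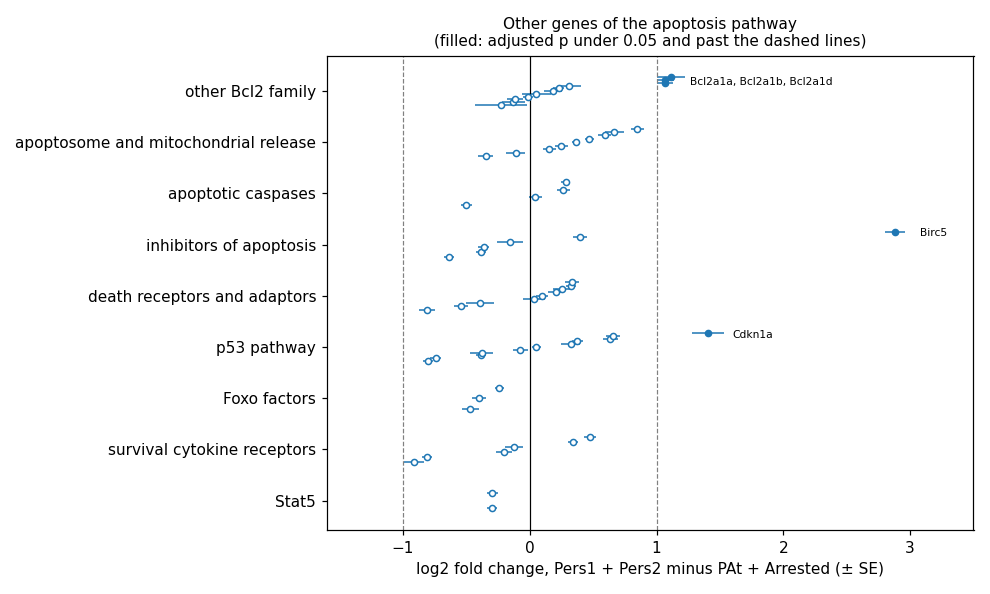
Log2 fold changes of persistent cells against PAt and Arrested cells (horizontal axis, ± SE from the limma fit) for 61 further genes of the pathway, in rows by function; filled, named points passed an adjusted p of 0.05 and lie past a log2 fold change of 1 (dashed lines). The 5 called genes are all higher in Pers1 and Pers2, with Birc5 at 2.88 and Cdkn1a at 1.41.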

How the data were processed

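RNA from the 6 sorted populations (3 libraries each, pools of mice per the study's methods) was sequenced as stranded mRNA libraries. Per the labels and the study's methods, the authors used CASAVA 1.8.2, FastQC 0.11.2, TopHat2 2.0.9 on mm10 with or without the Timer gene, and DESeq2. The counter and annotation are not given in the sources used here. The deposited values are log2 normalised counts made by the authors, 15402 genes from -0.02 to 18.89; their exact transformation is not stated, and any shrinkage of low counts in it would make fold changes of low genes smaller. A count test could not be run, and depth is unknown.

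From these values limma 3.58.1 in R 4.3.3 fitted all 18 libraries (12 residual degrees of freedom, prior variance with a trend on mean expression) over 13190 genes, those whose mean over the libraries reached a log2 value of 3. P-values were two-sided and adjusted by Benjamini-Hochberg within each comparison. A call needed an adjusted p under 0.05 and a log2 fold change above 1 in size, after the study's thresholds. The script was tested on simulated data. All 18 columns were matched to samples by title. The closest libraries were distinct.

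The replicate numbers come from the sample titles, and the series design has each replicate as 1 pool from which all populations were sorted, so the numbers were taken as pairing. Same-numbered libraries of different populations deviated from their population means together in 42 of 45 pairs (median correlation 0.17, range -0.21 to 0.44; -0.06 for differently numbered libraries). The main fit had no block, since the study's methods name none. P-values measure the spread between these pools.

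Lengths and positions came from GENCODE vM21 on GRCm38 and upstream windows from RefSeq. The genes named were the 10 members, the 3 genes most correlated with each called member, and up to 4 called genes of each pathway list with the largest change in persistent against PAt and Arrested cells; values of other listed genes are given as counts or were named after their values were seen. Some genes of the pathway are not reported here and are left out of the list counts. Members and lists were chosen with earlier results of these data known. Alternatives were another filter on low values, no trend, the replicate block, only the compared populations, libraries shifted to the same median, no fold threshold, and each library left out.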

Additional observations from a re-analysis of the deposited data

Results flagged for a closer look

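For 6 genes the change from PAt and Arrested to Pers1 and Pers2 differed from the change from Tnaive to Teff, by the limma test of the difference itself and an adjusted p under 0.05. The differences, as the first change less the second on the log2 scale, were -1.79 for Pmaip1, -0.75 for Bcl2, -0.45 for Bcl2l11, -0.34 for Bax, 0.38 for Bak1 and 0.33 for Bid. These 6 of 10 compare with 48.7% of all genes tested. Pmaip1 alone also passed the fold threshold. Summed markers of macrophages and monocytes, plasmacytoid dendritic cells, CD8 T cells and NK cells stood highest in the Teff libraries. Those libraries enter every one of these differences. All 5 B cell markers (median -3.14) and both activation markers, Cd44 and Mki67 (median -1.85), were themselves called lower in this difference of changes. The part of all these markers was not tested.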

How the results depend on the processing

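No call of a member by adjusted p and fold changed in 750 gene-by-comparison values from leaving out each of 18 libraries, or in 470 such values under 6 other settings. With the adjusted p and no fold threshold, the members called went to 9, 8, 6, 9, 10, 4, 1 and 6 in the order of persistent against PAt and Arrested, persistent against Teff, PAt and Arrested against Teff and against Tnaive, Teff against Tnaive, Pers2 against Pers1, Arrested against PAt, and the difference of changes. The shares of all genes that passed the adjusted p alone were, in the same order, 70.9%, 58.7%, 52.7%, 50.7%, 59%, 10.6%, 5.04% and 48.7%. Adding the replicate block changed no call of a member.

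With libraries shifted to the same median, Pers2 against Pers1 changed sign for Bcl2 (-0.0094) and Bax (-0.0036). Leaving out a library changed signs only among values that missed the adjusted p: Bax from -0.067 to 0.00051 (persistent against PAt and Arrested), -0.091 to 0.0096 (PAt and Arrested against Teff) and -0.043 to 0.069 (Pers2 against Pers1); Pmaip1 from -0.099 to 0.15 (PAt and Arrested against Teff); Bcl2 from -0.14 to 0.098 and Bid from -0.0064 to 0.092 (Pers2 against Pers1); Bcl2l11 from -0.050 to 0.10 and Bad from -0.18 to 0.030 (Arrested against PAt); and Bbc3 from -0.32 to 0.12 (difference of changes). The cause was not tested. Unknown depth leaves the precision of the lowest values, such as Pmaip1 in Tnaive, resting on the spread of 3 libraries.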
